A study of Rattus norvegicus with 10 samples.

Results

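The aryl hydrocarbon receptor (Ahr) and 5 genes known as its targets (Ahrr, Cyp1a1, Cyp1b1, Tiparp and Aldh3a1) were followed in injured rat heart. They were taken by symbol, and 6 of the 31580 genes of the tissue table and 6 of the 39537 features of the nuclear matrices matched. The group was chosen by the tissue counts of Cyp1b1, which were higher with BT2 at 4 h, so all values of the BT2 comparison at 4 h are given as a description, with no test.

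The receptor is a transcription factor that rests in the cytosol with the chaperone Hsp90 and its co-chaperones. When it binds a ligand, such as a dioxin, a polycyclic aromatic hydrocarbon or a product of tryptophan, it moves to the nucleus, pairs with Arnt and binds xenobiotic response elements. Its best known targets are Cyp1a1 and Cyp1b1, which encode oxidising enzymes of the cytochrome P450 family. Ahrr, which competes with the receptor for Arnt, and Tiparp, which modifies the receptor with ADP-ribose, act as feedback inhibitors. Aldh3a1 encodes an aldehyde dehydrogenase that the pathway induces in rat liver.

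In rat hearts that had undergone ischaemia and reperfusion, RNA was taken from the AAR, the area at risk. Tissue libraries were made from BT2-treated rats at 24 h, vehicle-treated rats at 24 h, BT2-treated rats at 4 h and vehicle-treated rats at 4 h, with 2 libraries in each group. Nuclei were profiled at 24 h as 1 library with BT2 (100 mg/kg) and 1 with vehicle. The small molecule BT2 is given by code name alone. The labels give no strain, sex or age, and they state the dose for the nuclear samples alone. Sample titles count the hours from ligation of the left coronary artery, whereas the series text counts them from the injury.

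Total counts per tissue library ran between 10397310 and 24480984, and 15216 genes passed the filter on low counts. Replicate libraries correlated across these genes at r = 0.980 to 0.989 on the log2 scale. Whether replicate libraries stem from different animals is not stated, and p-values then measure only the spread between samples, which may be technical. All 8 cardiomyocyte markers on the list were present in the tissue, and their summed level ran between 26306 and 86937 CPM (counts scaled to library size with TMM factors). The nuclear libraries kept 10324 nuclei with BT2 and 11372 with vehicle, at medians of 2157 and 2465 UMIs per nucleus.

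Promoter sequences show where the letters of the response element lie in the genes whose levels are described. RefSeq sequences of assembly GRCr8, 250 bases before to 50 bases after the annotated start, were matched for 4 of the 6 genes (Ahr, Ahrr, Cyp1b1 and Tiparp). Capitals mark the core GCGTG on either strand (CACGC where it lies on the opposite strand) and, where present, the longer form TNGCGTG that contains it. The Cyp1b1 window is chr6:21094315-21094614, the Ahrr window chr1:30821969-30822268 and the Tiparp window chr2:152063519-152063818, all on the plus strand.
Cyp1b1: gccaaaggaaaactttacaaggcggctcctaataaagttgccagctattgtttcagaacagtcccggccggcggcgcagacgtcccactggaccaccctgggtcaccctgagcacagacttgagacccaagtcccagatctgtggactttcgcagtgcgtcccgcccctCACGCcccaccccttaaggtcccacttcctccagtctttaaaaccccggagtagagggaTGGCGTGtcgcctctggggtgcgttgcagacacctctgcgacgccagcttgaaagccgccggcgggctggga
Ahrr: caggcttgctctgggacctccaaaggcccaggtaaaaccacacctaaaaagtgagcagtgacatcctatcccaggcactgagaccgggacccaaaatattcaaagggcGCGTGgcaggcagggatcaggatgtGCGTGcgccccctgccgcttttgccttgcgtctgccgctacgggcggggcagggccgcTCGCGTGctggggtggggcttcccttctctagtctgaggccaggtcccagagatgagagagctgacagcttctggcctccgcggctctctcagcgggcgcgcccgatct
Tiparp: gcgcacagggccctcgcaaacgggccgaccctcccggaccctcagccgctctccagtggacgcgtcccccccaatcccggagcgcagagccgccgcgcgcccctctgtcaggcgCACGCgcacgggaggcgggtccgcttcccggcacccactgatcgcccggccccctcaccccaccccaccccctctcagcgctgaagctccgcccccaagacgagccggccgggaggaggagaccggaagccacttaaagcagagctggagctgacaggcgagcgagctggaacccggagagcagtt
In Cyp1b1 the longer form began 22 bases before the start and a core on the opposite strand began 81 bases before it. Ahrr held 3 cores, at 142, 117 and 57 bases before its start, and the last of them lies within a longer form. Tiparp held 1 core, 136 bases before its start on the opposite strand, and the Ahr window held 0 matches. The core occurred in 29.7% of 33469 rat promoter windows of this length and the longer form in 4.89%, so a match describes the letters and not a bound site.

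The receptor itself rose at the later time in both treatments, and at 4 h it was lower with BT2 than with vehicle. At 24 h Ahr had 56.0 and 42.4 CPM with BT2, against 44.8 and 41.4 CPM with vehicle. These groups overlapped, and the log2 fold change of 0.19 ± 0.15 (SE, n = 2 per group, as in every fitted value below) did not pass (95% interval -0.16 to 0.54, edgeR adjusted p = 0.346). It had 18.2 and 15.6 CPM in the BT2 libraries at 4 h, against 28.9 and 25.7 CPM in the vehicle libraries. Both BT2 libraries lay below both vehicle libraries at 4 h, and the log2 fold change was -0.69 ± 0.16. Of all tested genes, 30.1% had both BT2 libraries below both vehicle libraries at 4 h, and 29.2% had both above. In tissue RNA, fewer cells of a type and less RNA per cell cannot be told apart.

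Between the times, Ahr rose with BT2 by 1.54 ± 0.16 on the log2 scale at 24 h relative to 4 h (edgeR adjusted p = 0.00184). With vehicle it rose by 0.66 ± 0.16 (edgeR adjusted p = 0.00910), and all 24 h libraries of each treatment lay above its 4 h libraries. The vehicle call was lost without vehicle replicate 2 at 4 h (0.58, edgeR adjusted p = 0.0557) and without vehicle replicate 1 at 24 h (0.61, edgeR adjusted p = 0.0515). Of all tested genes, 23.3% were called between the times with BT2 and 47.1% with vehicle. The share of all genes whose 24 h libraries lay above their 4 h libraries was not counted.

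**Figure D1:**
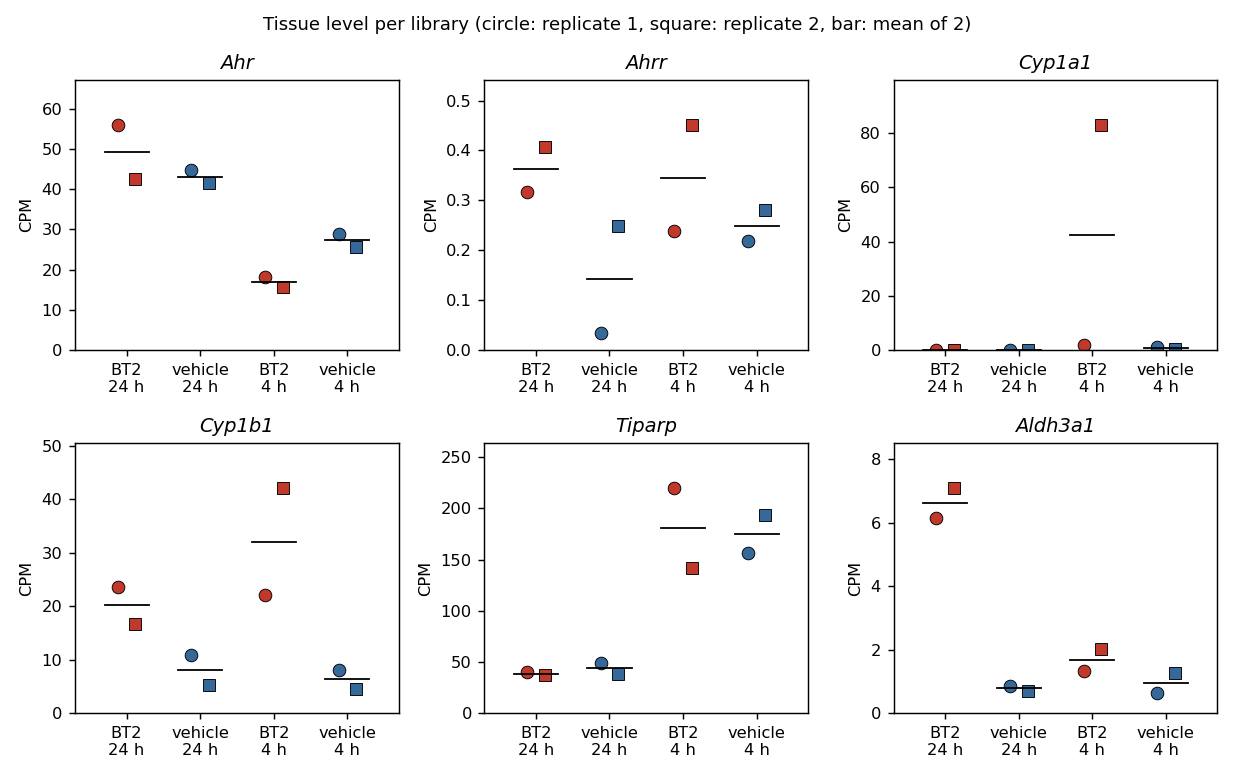
CPM (vertical axis, linear from 0) of each of the 6 genes in the 8 tissue libraries, by treatment and time, BT2 in red and vehicle in blue; circles are replicate 1, squares replicate 2 and bars the mean of the 2 libraries. Cyp1a1 stands at 83.1 CPM in 1 BT2 library at 4 h and at 1.90 CPM in the other, and both Aldh3a1 values with BT2 at 24 h (6.15 and 7.10 CPM) lie above all others of that gene.

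Of the feedback inhibitors, Tiparp fell between the times in both treatments, and Ahrr was read from few counts. Ahrr had 7 and 10 counts with BT2 at 24 h and 1 and 6 counts with vehicle. At 4 h it had 3 and 8 counts in the BT2 libraries and 2 and 4 counts in the vehicle libraries. The BT2 libraries lay above the vehicle libraries at 24 h in counts and in CPM, and the groups overlapped at 4 h. Among all tested genes, 37.7% had both BT2 libraries above both vehicle libraries at 24 h, and 39.5% had both below. Ahrr was the one of the 6 genes that did not pass the filter on low counts, so it was not tested. Summed over libraries and scaled to their size, the ratio of BT2 over vehicle was 2.76 at 24 h (95% exact interval 1.09 to 7.86) and 1.42 at 4 h (0.481 to 4.67), with intervals that cover counting error alone.

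Tiparp had 40.1 and 37.7 CPM with BT2 at 24 h, against 49.4 and 38.8 CPM with vehicle. The groups overlapped, and the log2 fold change was -0.18 ± 0.22 (95% interval -0.69 to 0.32, edgeR adjusted p = 0.535). At 4 h it had 219.9 and 141.7 CPM with BT2, against 156.8 and 193.7 CPM with vehicle, which again overlapped. The log2 fold change of 0.04 ± 0.21 at 4 h became -0.31 without BT2 replicate 1 at 4 h, -0.10 without vehicle replicate 1 at 4 h and 0.33 without BT2 replicate 2 at 4 h.

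At 24 h relative to 4 h Tiparp fell by 2.22 ± 0.22 on the log2 scale with BT2 (edgeR adjusted p = 0.00196) and by 1.99 ± 0.22 with vehicle (edgeR adjusted p = 0.000361). No 24 h library reached any 4 h library. Of all tested genes, 11.6% were called lower at 24 h with BT2 and 23.8% with vehicle. The share of all genes whose libraries separated between the times was not counted. Both calls held under all 13 alternatives.

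Cyp1b1, whose enzyme oxidises oestrogens, retinoids and fatty acids as well as foreign chemicals, carried the difference that chose the group, and it was higher with BT2 at both times. The 24 h libraries were not used in that choice. Cyp1b1 had 23.7 and 16.8 CPM with BT2 at 24 h, against 10.9 and 5.22 CPM with vehicle, with both BT2 libraries above both vehicle libraries. It was 2.49-fold higher with BT2 (log2 fold change 1.32 ± 0.44, 95% interval 0.29 to 2.34, edgeR adjusted p = 0.0473). At this time 39.5% of all tested genes were called, 18.9% higher with BT2 and 20.7% lower. Both BT2 libraries lay above both vehicle libraries in 37.7% of all tested genes at 24 h and below both in 39.5%.

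At 4 h Cyp1b1 had 22.0 and 42.1 CPM with BT2, against 8.16 and 4.56 CPM with vehicle. Both BT2 libraries again lay above both vehicle libraries, and BT2 replicate 2 stood 1.91-fold above BT2 replicate 1. The log2 fold change was 2.38 ± 0.48 at 4 h and 1.83 without BT2 replicate 2. Among all tested genes, both BT2 libraries lay above both vehicle libraries in 29.2% and below both in 30.1% at 4 h.

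The call at 24 h lay close to the threshold of 0.05. It was lost without any filter on low counts (log2 fold change 1.31, edgeR adjusted p = 0.201), without BT2 replicate 1 at 24 h (1.04, adjusted p = 0.219), BT2 replicate 2 at 24 h (1.55, adjusted p = 0.0691) or vehicle replicate 2 at 24 h (0.89, adjusted p = 0.220). It was also lost without either vehicle library at 4 h (1.31 each, adjusted p = 0.0573 and 0.0587). The direction held in all 13 alternatives, whose adjusted p ran between 0.00459 and 0.220.

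The course of Cyp1b1 between the times is given without a test, because its 4 h values chose the group. With BT2 the log2 difference of 24 h over 4 h was -0.67 ± 0.42, and it was -0.13 without BT2 replicate 2 at 4 h. With vehicle it was 0.39 ± 0.49, and it was -0.24 without vehicle replicate 1 at 24 h and -0.0053 without vehicle replicate 2 at 4 h.

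Cyp1a1, the enzyme most used as a readout of receptor activity, was high in a single library, and it was at or under the floor of 3 counts in every library at 24 h. It had 0 and 0 counts with BT2 at 24 h, against 1 and 0 counts with vehicle. The floor of 3 counts stands at 0.136 and 0.122 CPM with BT2 and at 0.104 and 0.124 CPM with vehicle, so no fold is given at that time. At 4 h it had 24 and 1472 counts in BT2 replicates 1 and 2, which is 1.90 CPM (95% exact Poisson interval 1.22 to 2.83) and 83.1 CPM (78.9 to 87.4). The vehicle libraries at 4 h had 9 and 8 counts, or 0.979 CPM (0.448 to 1.86) and 0.561 CPM (0.242 to 1.10). Both BT2 libraries lay above both vehicle libraries, as in 29.2% of all tested genes at 4 h. The BT2 libraries differed from each other by a ratio of 43.7 (29.2 to 68.4). BT2 replicate 1 was 2.63-fold above the pooled vehicle libraries (1.35 to 5.21, counting error alone). The fitted log2 fold change of 5.86 ± 1.87 was 1.35 without BT2 replicate 2.

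Among 15216 tested genes, Cyp1a1 had the largest positive difference between these BT2 libraries, 5.37 on the log2 scale, and the second largest in size after Fam111a, which differed by -7.49. The next gene in the positive direction was Serpina3n at 4.49. In the same libraries Ahr and Tiparp were lower in BT2 replicate 2 than in BT2 replicate 1, and Cyp1b1 and Aldh3a1 were higher.

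Markers of other tissues were counted in the same libraries from lists chosen after the values were seen. The 7 lung epithelium markers summed to 11.7 and 12.8 CPM in BT2 replicates 1 and 2 at 4 h, against 28.3 and 61.8 CPM with vehicle. Napsa alone made up 11.6 and 12.5 CPM of this with BT2, against 28.1 and 61.3 CPM with vehicle, and the other markers (Sftpc, Sftpb, Sftpa1, Sftpd, Scgb1a1 and Scgb3a2) were at or near 0. The 7 liver markers summed to 8.96 and 7.85 CPM in BT2 replicates 1 and 2 at 4 h, against 4.90 and 4.00 CPM with vehicle. Cyp2e1 made up 8.48 and 7.11 CPM of this with BT2, against 4.57 and 3.29 CPM with vehicle, and Alb was at or near 0 and Apoa2 at 0. Their part in the Cyp1a1 values was not tested.

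**Figure D2:**
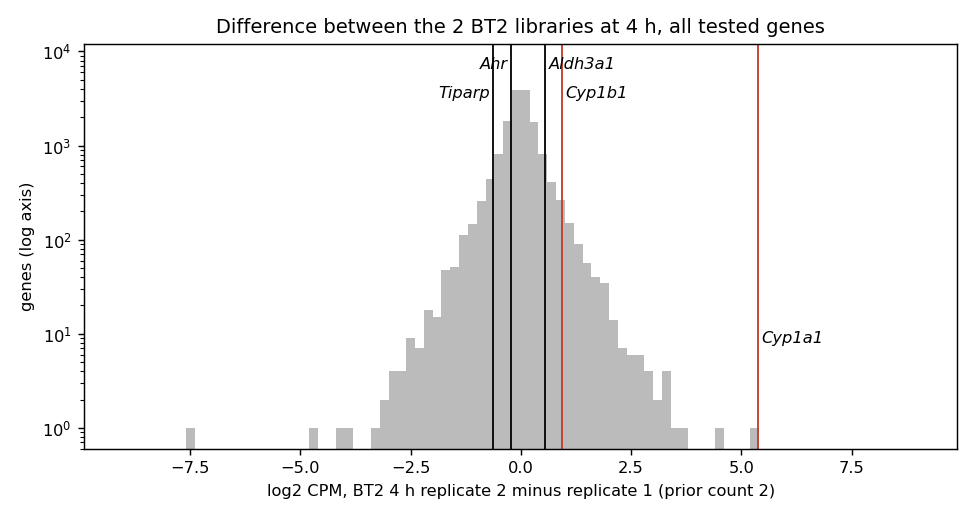
Number of tested genes (vertical log axis) by the log2 CPM difference of BT2 replicate 2 minus BT2 replicate 1 at 4 h (horizontal axis), with lines at 5 of the 6 genes; Ahrr was not tested. Cyp1a1 lies at the right end, at 5.37, apart from the body of genes that holds Ahr, Tiparp, Aldh3a1 and Cyp1b1.

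With BT2, the lower 4 h library of Cyp1a1 (1.90 CPM) stood 14-fold above the higher 3-count floor of the 24 h libraries (0.136 CPM). This ratio leaves out counting error, so it is not a lower limit of the fall. With vehicle, 1 count at 24 h stood against 17 counts at 4 h, a ratio of 0.0261 (95% exact interval 0.000624 to 0.166, counting error alone). Cyp1a1 passed the filter on low counts only through the BT2 libraries at 4 h, so no test between the times is given for it.

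Aldh3a1, which encodes an enzyme that oxidises aromatic and fatty aldehydes, had the largest tested BT2 difference of the group at 24 h. It had 6.15 and 7.10 CPM with BT2 at 24 h (136 and 174 counts), against 0.868 and 0.704 CPM with vehicle (25 and 17 counts). It was 8.33-fold higher with BT2 (log2 fold change 3.06 ± 0.33, 95% interval 2.29 to 3.82, edgeR adjusted p = 0.000802). The call held in all 13 alternatives, with log2 fold changes between 2.92 and 3.22 where a library was left out.

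At 4 h the gene was scarce in both treatments. Aldh3a1 had 1.35 and 2.03 CPM with BT2 at 4 h (17 and 36 counts), against 0.653 and 1.26 CPM with vehicle (6 and 18 counts). Both BT2 libraries lay above both vehicle libraries, as in 29.2% of all tested genes at 4 h. The log2 fold change of Aldh3a1 was 0.78 ± 0.39, or 1.39 without vehicle replicate 2. With BT2 it rose by 1.95 ± 0.32 at 24 h relative to 4 h (edgeR adjusted p = 0.00686), beside 11.7% of all tested genes called higher. With vehicle the difference between the times was -0.34 ± 0.41 (edgeR adjusted p = 0.523), and 0.28 without vehicle replicate 2 at 4 h. The BT2 effect at 24 h exceeded that at 4 h by 2.28 ± 0.52 on the log2 scale, a difference that was not tested because the 4 h contrast chose the group.

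**Figure D3:**
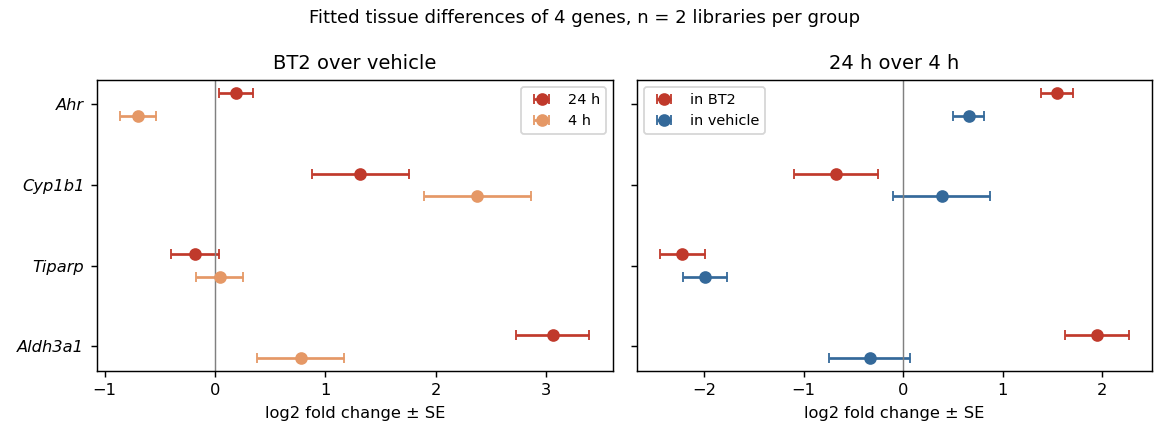
Log2 fold change ± SE (horizontal axes) of 4 genes, BT2 over vehicle at 24 h and 4 h (left) and 24 h over 4 h in BT2 and in vehicle (right), with n = 2 libraries per group. Aldh3a1 lies at 3.06 at 24 h and 0.78 at 4 h, and Tiparp lies at -2.22 (BT2) and -1.99 (vehicle) between the times.

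Beside Cyp1b1 and Aldh3a1, markers of several cell types differed in the tissue at 24 h. The 8 fibroblast markers on the list summed to 6597 and 5869 CPM with BT2 at 24 h, against 3942 and 3522 CPM with vehicle, with 3 markers called higher by edgeR and Col1a2 at or near 0 in all 8 libraries. Most of this gap lay in Gsn (2336 and 2156 CPM with BT2, 711 and 647 CPM with vehicle) and Dcn (1047 and 1012 CPM with BT2, 381 and 279 CPM with vehicle). In all, 4 markers had both BT2 libraries above both vehicle libraries at 24 h, and 1, Col1a1, had both below (708 and 652 CPM against 749 and 881 CPM). Among all tested genes at 24 h, 37.7% lay above and 39.5% below in this way, and 18.9% were called higher and 20.7% lower. At 4 h the fibroblast sums were 5328 and 5187 CPM with BT2, against 5545 and 4811 CPM with vehicle. The 8 cardiomyocyte markers summed to 57600 and 42429 CPM with BT2 at 24 h, against 26306 and 26980 CPM with vehicle, and 6 were called higher. The 9 monocyte and macrophage markers summed to 684 and 829 CPM with BT2 at 24 h, against 2060 and 2558 CPM with vehicle, and 6 were called lower and 1 higher. Most of this gap lay in Gpnmb, with 237 and 294 CPM with BT2 and 1172 and 1739 CPM with vehicle. The part of these shifts in the values of Cyp1b1 and Aldh3a1 was not tested.

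The machinery around the receptor was read from 55 further genes of the pathway, of which 42 were tested. At 24 h, 8 of these 42 genes rose with BT2, 10 fell and 24 did not pass, which is 42.9% called beside 39.5% of all tested genes. Their median log2 fold change was -0.02, beside -0.01 over all tested genes. The count of genes that rose was 5 without vehicle replicate 1 at 24 h and 4 without vehicle replicate 2, and the count that fell was 4 without BT2 replicate 1 at 24 h and 6 without vehicle replicate 1.

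Of the 14 partners, chaperones and coregulators tested, 1 rose, 2 fell and 11 did not pass at 24 h, which is 21.4% called beside 39.5% of all tested genes. Arnt, the obligate partner in DNA binding, had 36.0 and 35.6 CPM with BT2 at 24 h, against 35.1 and 33.2 CPM with vehicle (log2 fold change 0.07 ± 0.14, edgeR adjusted p = 0.731). Ptges3, the co-chaperone p23 of the cytosolic complex, fell by 0.70 ± 0.10 on the log2 scale (edgeR adjusted p = 0.00166), with 89.0 and 102.5 CPM in BT2 libraries and 158.2 and 152.2 CPM in vehicle libraries. Hsp90ab1, the constitutive Hsp90, fell by 0.40 ± 0.13 (edgeR adjusted p = 0.0390), and the coactivator Ncoa1 rose by 0.41 ± 0.12 (edgeR adjusted p = 0.0300).

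Other factors that pair with Arnt moved in opposite directions. Hif1a, the oxygen-regulated subunit of HIF-1, fell by 0.87 ± 0.18 on the log2 scale at 24 h (edgeR adjusted p = 0.00710). Epas1, which encodes HIF-2 alpha, rose by 0.44 ± 0.11 (edgeR adjusted p = 0.0146). Hif3a had a log2 fold change of 2.11 ± 0.90 that did not pass (edgeR adjusted p = 0.0991).

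Among 16 further target genes tested, 3 rose, 4 fell and 9 did not pass at 24 h, which is 43.8% called beside 39.5% of all tested genes. Their median log2 fold change was -0.26, beside -0.01 over all tested genes. Socs2, a brake on cytokine and growth hormone signalling that the receptor induces in mouse B cells, had 151.2 and 109.8 CPM with BT2, against 57.5 and 58.9 CPM with vehicle. It rose by 1.16 ± 0.15 (edgeR adjusted p = 0.00131). Cdkn1b, a cell cycle inhibitor that the receptor induces in rat hepatoma cells, rose by 0.49 ± 0.09 (edgeR adjusted p = 0.00382). Bax, a promoter of apoptosis that the receptor induces in mouse oocytes, fell by 0.98 ± 0.13 (edgeR adjusted p = 0.00151). Nqo1, a quinone reductase that also answers to Nrf2, had 21.7 and 19.6 CPM with BT2, against 11.8 and 15.3 CPM with vehicle, and its log2 fold change of 0.61 ± 0.29 did not pass (edgeR adjusted p = 0.136). The list held genes of inflammation as well, and its other called genes were Vegfa at 0.56, Ptgs2 at -2.02, Areg at -3.16 and Il6 at -3.71, named after their values were seen.

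Tryptophan breakdown through kynurenine yields known ligands of the receptor, and of 9 genes of this supply 3 rose, 3 fell and 3 did not pass at 24 h, which is 66.7% called beside 39.5% of all tested genes. Their median log2 fold change was -0.71, beside -0.01 over all tested genes. Kyat1, an aminotransferase that makes kynurenic acid, had 35.4 and 28.6 CPM with BT2, against 14.6 and 14.3 CPM with vehicle, and rose by 1.15 ± 0.17 (edgeR adjusted p = 0.00180). Afmid, the formamidase that releases kynurenine, rose by 1.30 ± 0.22 (edgeR adjusted p = 0.00303). Slc3a2, the heavy chain of the transporter that carries tryptophan and kynurenine into cells, fell by 0.76 ± 0.17 (edgeR adjusted p = 0.00992). The other called genes, named after their values were seen, were Aadat at 1.29, a second aminotransferase of this route, Slc7a5 at -1.44, the light chain of that transporter, and Kmo at -1.13, which turns kynurenine towards quinolinic acid.

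**Figure D4:**
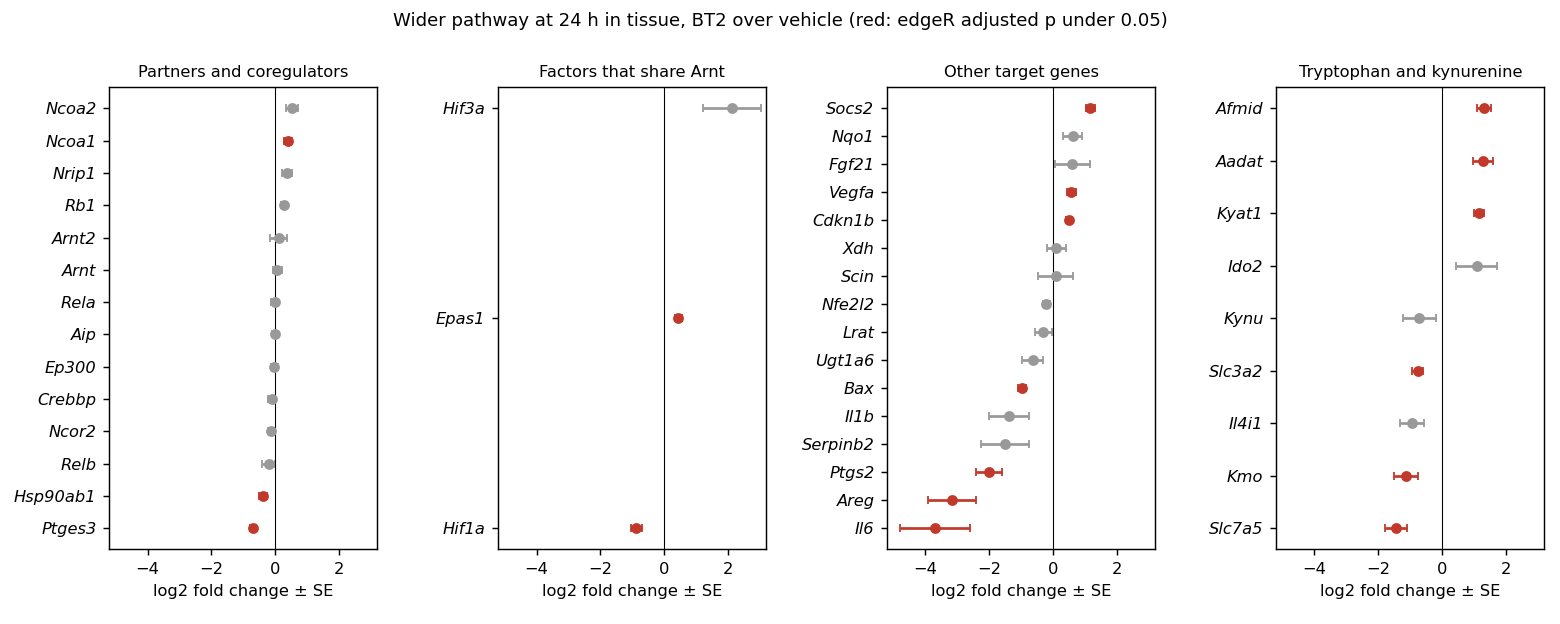
Log2 fold change ± SE of BT2 over vehicle at 24 h (horizontal axes) for the 42 tested genes of the wider pathway, in 4 groups, with genes called by edgeR in red and others in grey; n = 2 libraries per group. Called genes lie on both sides of 0 in each of the 4 panels, 8 to the right and 10 to the left in all.

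At 4 h the wider genes are described without a test, like the 6 genes. Their median log2 fold change was -0.19, beside 0.0034 over all tested genes. Ncoa1 had a log2 fold change of 0.59 ± 0.13 at 4 h, with both BT2 libraries above both vehicle libraries. Ptges3 was at -0.38 ± 0.10 and Hif1a at -0.74 ± 0.18, each with both BT2 libraries below both vehicle libraries. Among all tested genes at 4 h, 29.2% lay above and 30.1% below in this way. Socs2 (0.16 ± 0.15), Kyat1 (0.16 ± 0.16) and Afmid (-0.37 ± 0.23) had overlapping groups at 4 h.

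Genes with a pattern like that of 3 of the 6 were sought by Pearson correlation of log2 CPM over the 8 libraries, among 10398 genes with a mean of at least 5 CPM. These values describe 8 points that share libraries and depth. For Cyp1b1 the nearest were Pcnx1 (r = 0.981), Itpr1 (0.980) and Lrp6 (0.979). For Ahr they were Bahcc1 (0.977), Arhgap6 (0.976) and Sh3pxd2a (0.975), and for Tiparp Tsfm, Ddx3 and Jmjd1c (0.991 each). Itpr1, a calcium release channel, had 44.6 and 51.9 CPM with BT2 at 4 h, against 30.8 and 21.5 CPM with vehicle.

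Nuclei at 24 h show in which cell classes the transcripts lay. With 1 library per treatment there is no test between treatments, and the intervals cover counting error alone. Over all nuclei, Cyp1b1 had 102 UMIs with BT2 and 69 with vehicle, or 3.15 and 1.53 CPM, a ratio of 2.06 (95% exact interval 1.50 to 2.84). Aldh3a1 had 17 UMIs with BT2 and 10 with vehicle, a ratio of 2.37 (1.02 to 5.79). Ahr had 2195 and 3552 UMIs, or 67.8 CPM with BT2 and 78.7 CPM with vehicle, a ratio of 0.861 (0.816 to 0.909). Tiparp had 39.9 CPM with BT2 and 43.9 CPM with vehicle, a ratio of 0.907 (0.845 to 0.974), and Ahrr had 33 UMIs with BT2 and 37 with vehicle. Cyp1a1 had 0 UMIs in both libraries, with upper limits of the exact 95% interval at 0.114 CPM with BT2 and 0.0817 CPM with vehicle.

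Cyp1b1 and Aldh3a1 lay mainly in fibroblast-like nuclei. These held 70.8% of the Cyp1b1 UMIs and 74.1% of the Aldh3a1 UMIs, beside 22.9% of all UMIs. Cyp1b1 had 7.25 CPM with BT2 and 6.14 CPM with vehicle there (79 and 42 UMIs). In cardiomyocyte-like nuclei it had 0.411 CPM with BT2 and 0.464 CPM with vehicle. These rest on 2 and 3 UMIs, at or under the floor of 3 counts. Within the fibroblast-like class the ratio of BT2 over vehicle was 1.18 (0.80 to 1.76) for Cyp1b1 and 1.47 (0.53 to 4.65) for Aldh3a1, the last from 14 and 6 UMIs.

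The fibroblast-like class itself held 2981 of 10324 nuclei and 33.6% of the UMIs with BT2, against 1597 of 11372 nuclei and 15.2% of the UMIs with vehicle. Unnamed nuclei held 15.3% of the UMIs with BT2 and 34.7% with vehicle, so part of the gap between these shares may lie in which nuclei could be named. The 2 clusters of the fibroblast-like class were also read apart. In the one led by Scara5, Cyp1b1 had 29 UMIs with BT2 and 13 with vehicle (ratio of CPM 0.988, 0.498 to 2.07). In the one led by Ltbp2 and Postn it had 6.28 CPM with BT2 and 5.23 CPM with vehicle (ratio 1.20, 0.745 to 1.97). The Scara5 cluster held most of the Aldh3a1 UMIs of the class, 12 with BT2 and 5 with vehicle, or 4.09 and 3.85 CPM (ratio 1.06, 0.349 to 3.85). The tissue ratio of Aldh3a1 at 24 h, 8.33, lies above the whole interval of all nuclei (ratio 2.37, upper limit 5.79). The tissue ratio also lies above the upper limit of the fibroblast-like nuclei (4.65). These nuclei held 74.1% of the Aldh3a1 UMIs, so the ratio of all nuclei is mostly theirs and cannot describe other classes. These nuclear intervals cover counting error alone, and whether tissue and nuclei differ was not tested.

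Ahr had a different spread over the classes, and unnamed nuclei held 33.2% of its UMIs, beside 26.6% of all UMIs. Dendritic cell-like nuclei (185 CPM with BT2, 193 CPM with vehicle) and lymphocyte-like nuclei (170 CPM with BT2, 137 CPM with vehicle) were among the highest in both libraries. Schwann cell-like nuclei had 184 CPM with BT2, with an interval that overlapped those of both these classes. In the vehicle library they had 90.0 CPM, from 24 UMIs in 97 nuclei (interval 57.6 to 133.9 CPM). That interval covers the levels of monocyte or macrophage-like (116.6 CPM), endothelial-like (113.8 CPM) and lymphatic endothelial-like nuclei (106.4 CPM), so their order is not settled. Endothelial-like nuclei had 121.6 CPM with BT2. The lowest levels were in pericyte-like nuclei (27.8 CPM with BT2, 17.7 CPM with vehicle) and cardiomyocyte-like nuclei (17.1 CPM with BT2, 18.9 CPM with vehicle), whose intervals lay below those of the endothelial-like nuclei.

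Tiparp was highest in cardiomyocyte-like nuclei, with 104.0 CPM with BT2 and 105.3 CPM with vehicle (ratio 0.988, 0.879 to 1.11). These nuclei held 36.3% of its UMIs beside 14.6% of all UMIs, and neutrophil-like nuclei followed, with 76.4 CPM with BT2 and 73.4 CPM with vehicle. Unnamed nuclei held 25.4% of the Tiparp UMIs, beside 26.6% of all UMIs. At a higher clustering resolution the cardiomyocyte-like ratio was 0.573, and a cluster of 523 nuclei led by Xirp2 was then not named. That cluster scored highest for cardiomyocyte markers. It stayed unnamed because its top 10 genes held 1 marker of the smooth muscle list (Des) and 0 of the cardiomyocyte list. In fibroblast-like nuclei Tiparp had 21.7 CPM with BT2 and 23.1 CPM with vehicle.

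**Figure D5:**
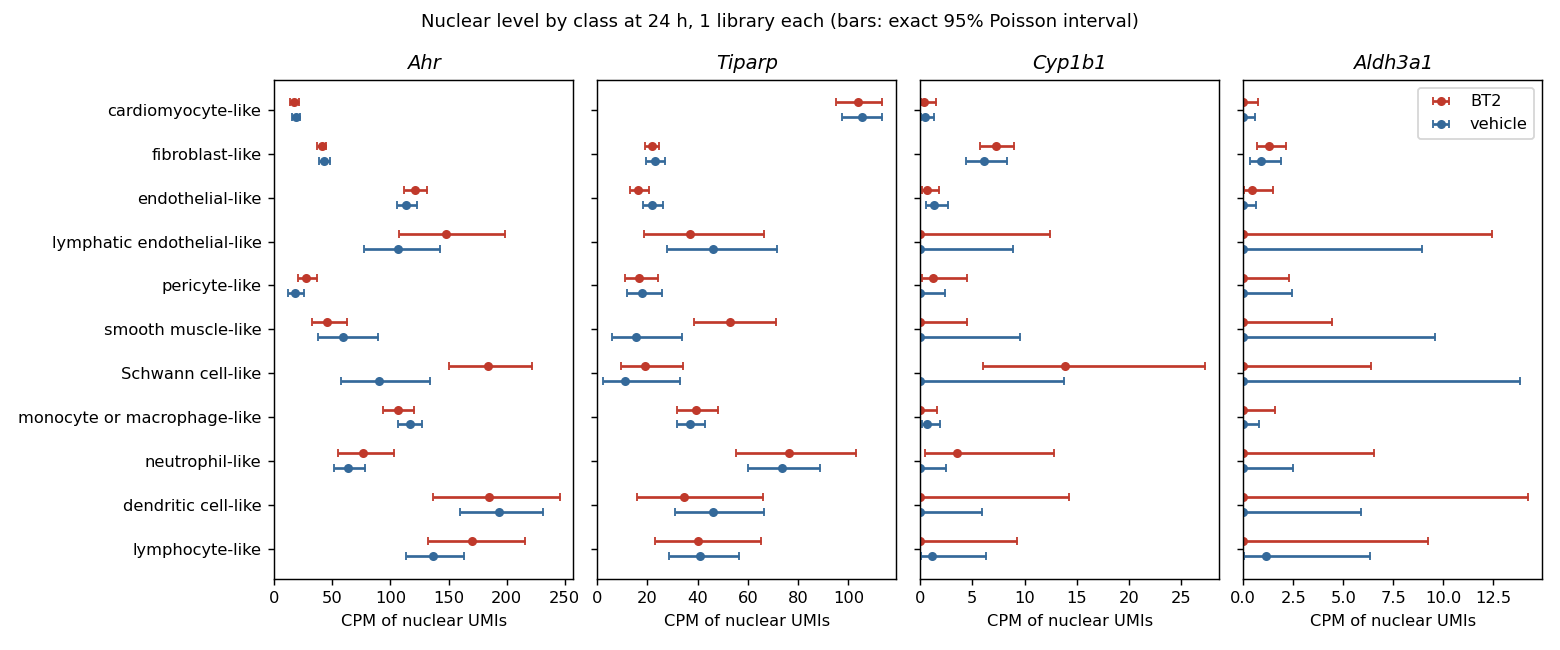
CPM of nuclear UMIs (horizontal axes, from 0) of 4 genes in 11 nuclear classes at 24 h, BT2 in red above vehicle in blue, 1 library each, with exact 95% Poisson intervals for counting error. Cyp1b1 stands at 7.25 CPM (BT2) and 6.14 CPM (vehicle) in fibroblast-like nuclei, Tiparp at 104.0 CPM (BT2) and 105.3 CPM (vehicle) in cardiomyocyte-like nuclei, and points at 0 with long bars are classes with few nuclei.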

How the data were processed

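RNA was sequenced from tissue with TruSeq stranded mRNA libraries, per the labels' protocols, and from nuclei. Per the submitters' processing notes, Trim Galore, STAR and featureCounts were used with the rat build Rnor_6.0; the sources used here name neither their versions nor the strand setting or annotation. Per the file headers, nuclear matrices came from Cell Ranger 8.0.1. For tissue the authors deposited unnormalized counts per gene, and for nuclei UMI counts per feature and barcode; 0 columns stayed unassigned.

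The 6 genes, the wider gene list and the markers were chosen with earlier results of these data known. Tissue counts were fitted with edgeR 4.0.16 in R 4.3.3 (TMM factors, filterByExpr, robust quasi-likelihood, 1 mean per group over all 8 libraries, 4 residual degrees of freedom). Tests were two-sided, and a Benjamini-Hochberg adjusted p over all tested genes under 0.05 was called. Named wider genes were the 3 with the smallest p of each sublist, with Arnt and Nqo1. The fit was checked on simulated counts. DESeq2 1.42.0, upper quartile factors, no filter, a replicate block, the contrast's libraries alone and each library left out were alternatives. Libraries of equal number did not deviate together (r between -0.0478 and 0.0943), so they were not paired.

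Barcodes were kept from 500 UMIs and 200 genes upwards if mitochondrial UMIs made up at most 5%, and 37 barcodes occurred in both libraries. Scrublet marked 0 nuclei with BT2 and 1 with vehicle, so its doublet calls did not work and doublets were not removed. The doublet score used below to name clusters comes from the same run. Leiden clustering (scanpy 1.11.5, resolution 0.5) gave 22 clusters; those with a marker score of at least 1.0, a lead of 0.5, 3 detected markers and a median doublet score of at most 0.1 were named, limits set after the clusters were seen. The 7 unnamed clusters held 3409 nuclei. Intervals are exact Poisson or conditional binomial, and reads from overlapping genes or near-identical copies may be split uncertainly.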

Additional observations from a re-analysis of the deposited data

How the results depend on the processing

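Over 48 results and 281 alternatives, 256 counted as unchanged. For tested results this means the same direction and call. For untested log2 differences it means the same direction and a move smaller than the SE. For nuclear ratios it means a value within the main interval, so the direction may change. For counts of wider genes it means a similar number. Without a filter on low counts the Cyp1b1 call at 24 h was lost (log2 fold change 1.31). Leaving out 1 library at a time gave these log2 ranges at 24 h: Cyp1b1 0.89 to 1.95 and Ahr -0.036 to 0.38. At 4 h they were 1.35 to 6.82 for Cyp1a1, 1.83 to 2.82 for Cyp1b1, 0.43 to 1.39 for Aldh3a1 and -0.31 to 0.33 for Tiparp. Between times with BT2 the range was -1.06 to -0.13 for Cyp1b1. Between times with vehicle they were 0.58 to 0.75 for Ahr, -0.24 to 0.84 for Cyp1b1 and -0.67 to 0.28 for Aldh3a1. The wider genes called numbered 4 to 9 higher and 4 to 10 lower. In nuclei, resolution 1.0 moved the Tiparp ratio to 0.573 in cardiomyocyte-like and the Ahr ratio to 0.747 in fibroblast-like nuclei. The cause was not tested. Alternatives for Cyp1a1 between the times are not given, since its fitted values against libraries at or near 0 counts are no estimates.

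A replicate block gave log2 fold changes at 24 h of 1.34 for Cyp1b1 (edgeR adjusted p = 0.0483) and 3.04 for Aldh3a1 (0.00171), changed no call of the 6 genes, and called 9 wider genes higher and 9 lower. Upper quartile factors put the median of all genes at 0.118 between times with vehicle and 0.108 with BT2. With TMM factors these medians were 0.0055 and 0.0200. Upper quartile factors reversed no direction among these results. Depth limits Ahrr and Cyp1a1, which had few or 0 counts in most libraries.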

Other observations

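Ahr also differed between macrophage clusters, values given with no explanation. In the monocyte or macrophage-like cluster led by Spp1 and Gpnmb, Ahr had 90.2 CPM with BT2 and 124.5 CPM with vehicle, a ratio of 0.724 (95% exact interval 0.596 to 0.876, counting error alone). In the one led by Cd163 and Lyve1 it had 140.4 CPM with BT2 and 85.8 CPM with vehicle, a ratio of 1.64 (1.21 to 2.22). In Schwann cell-like nuclei the Ahr ratio was 2.04 (1.30 to 3.33), from 106 UMIs in 276 nuclei with BT2 and 24 UMIs in 97 nuclei with vehicle. A class with under 100 nuclei in a library, as here, was not checked at the higher clustering resolution. Cyp1b1 had 8 UMIs there with BT2 and 0 with vehicle, and no fold is given because the floor of the vehicle nuclei, 11.2 CPM, lies within the BT2 interval of 5.99 to 27.3 CPM. Smooth muscle-like nuclei had 44 Tiparp UMIs with BT2 and 6 with vehicle, a ratio of 3.41 (1.45 to 9.78). These classes were singled out after their values were seen, each with 1 library per treatment.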
